A study of Mus musculus with 2 samples.

Results

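Conventional CD4 T cells of the proximal small intestine were examined in 2 Villin-CreERT2 Apc fl/fl (APC) mice. They were taken as cell barcodes with at least 1 unique molecular identifier (UMI, which tags 1 captured RNA molecule) of Ptprc, of the CD3 chains Cd3d, Cd3e and Cd3g summed, and of Cd4, and with none of Foxp3, Cd8b1 or Trdc. These 3 genes mark regulatory T cells, conventional CD8 T cells and gamma-delta T cells. Members also had fewer than 3 UMIs of C1qa, C1qb and C1qc summed, which are macrophage genes, and fewer than 3 of Mki67 and Top2a summed, which mark cycling cells. The rule found 126 barcodes in mouse 1 and 77 in mouse 2, or 203 of the 14898 barcodes kept. Members were thus selected on the measured UMIs of these genes, whose levels are given as a description, with no test.

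In both mice tamoxifen, given as 2 injections of 2 mg a day apart, activated a Cre recombinase under the Villin promoter, and all live cells of the digested tissue were sequenced on day 4. The Villin promoter drives Cre in intestinal epithelium, so the T cells carry the floxed Apc allele but are not the cells in which it is meant to be deleted. Both mice belong to 1 group, with VilCreER Apc fl/fl as genotype, and no library of uninduced or Cre-negative mice was analysed here. The comparisons are therefore between classes of barcodes within the same 2 animals. In a fit without the mouse as a block, p-values measure the spread between the mice within a class. A fit with the mouse as a block takes out the difference that the classes of a mouse share, and draws its spread largely from all genes together. Most calls below come from the second fit, so their p-values do not measure the spread between the mice in a single gene.

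CD4 T cells recognise peptides on MHC class II through an alpha-beta T-cell receptor and help other cells through CD40 ligand, costimulatory receptors and cytokines. In the gut wall they lie mostly in the lamina propria, where cells that have stayed in the tissue mix with cells that still circulate between blood and lymph. The epithelium itself is rich in another kind of T cell, the intraepithelial lymphocyte, which is mostly gamma-delta or CD8-bearing, holds granzymes and sits on the epithelium through the integrin CD103 (Itgae).

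The libraries held 85670711 and 38716743 UMIs in 9645 and 8800 barcodes. Of these, 7941 and 6957 were kept, with medians of 4381 and 2803 UMIs, and 3965 and 5551 had a UMI of CD3. Members made up 3.18% of the CD3-positive barcodes of mouse 1 (exact 95% interval 2.65 to 3.77%), while in mouse 2 they made up 1.39% (1.10 to 1.73%), so the share was higher in mouse 1. All intervals of shares are exact binomial (Clopper-Pearson) and cover counting error only. Levels are given as CPM, the UMIs of a gene per 1000000 UMIs summed over a class of barcodes in a mouse, so a higher level can come from more barcodes with the gene or from more UMIs in each.

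The label of conventional CD4 T cells did not hold for all members, and the name used here stands for the rule. Under the immunoglobulin limit described next, a UMI of a T-cell receptor gamma constant gene was present in 21.8% and 54.4% of the members and one of Cd8a in 19.5% and 45.6%, while one of the helper genes Icos, Izumo1r or Cd40lg was present in 56.3% and 35.3%. In mouse 2 the first 2 shares were above that of the helper genes, with intervals that overlap. The members fell into 2 sets by the share of their UMIs that came from immunoglobulin genes and Jchain, which plasma cells transcribe at very high levels. In 87 members of mouse 1 and 68 of mouse 2 this share was at most 6.20% and 3.21%. In the other 39 and 9 it was at least 31.8% and 41.8%, and 0 members lay between 10 and 30%. The second set had medians of 27330 and 21130 UMIs, against 4007 and 3158 in the first, and held 73.7% and 47.2% of all UMIs of the members. A limit of 20%, chosen after these values were seen, separates the 2 sets below.

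**Figure D1:**
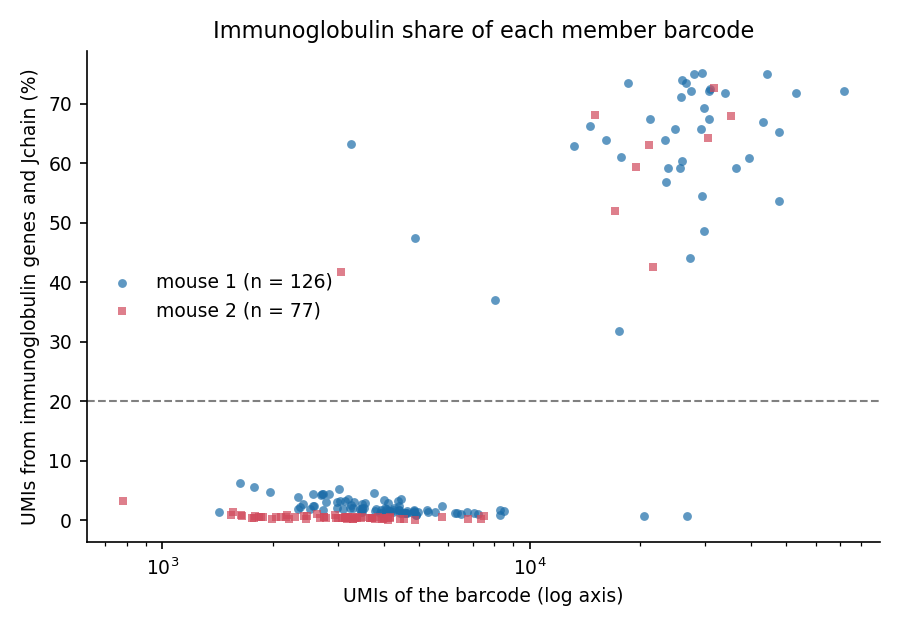
Each point is 1 member barcode, with its UMIs on a log axis and the percent of them from immunoglobulin genes and Jchain on the other axis, for mouse 1 (circles, n = 126) and mouse 2 (squares, n = 77). The dashed line marks 20%, which leaves 87 and 68 members below it and 39 and 9 above it.

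Above the limit the barcodes looked like plasma cells by most of their RNA. A UMI of the T-cell receptor constant genes Trac, Trbc1 or Trbc2 was present in 98.9% (93.8 to 99.97%) and 98.5% (92.1 to 99.96%) of the members below the limit, but in 51.3% (34.8 to 67.6%) and 55.6% (21.2 to 86.3%) of those above it, although these were deeper. Barcodes with Mzb1, with at least 10 UMIs of Jchain and with no CD3, 1976 in mouse 1 and 503 in mouse 2 with medians of 20662 and 20118 UMIs, had such a UMI in 10.5% and 7.36%. A UMI of Cd4 itself was present in 8.70% (7.50 to 10.0%) and 7.16% (5.06 to 9.77%) of these CD3-negative plasma-type barcodes, and in 0.775% and 0.199% when each barcode was thinned to 1000 UMIs. The sum of 7 plasma-cell markers was 7835 and 2213 CPM in the members below the limit, 9149 and 2183 CPM in the other CD3-positive barcodes below it, and 213205 and 223526 CPM in the members above it. Whether the barcodes above the limit hold 1 cell or several was not tested, and results are given for all members and for those below the limit.

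RNA of other cell types was present in the members below the limit. The B-cell, innate-lymphoid, and stromal and endothelial sums were higher in mouse 2, and the other sums of this paragraph were higher in mouse 1. The B-cell markers Ms4a1, Pax5 and Fcmr were at 0 in both mice, with a sum of 20.4 and 27.6 CPM over 6 markers against 142.6 and 48.6 CPM in the other CD3-positive barcodes. Epithelial markers summed to 112.0 and 68.9 CPM, with Krt19 and Cdx1 at 0, against 1807 and 658.8 CPM. Macrophage markers summed to 89.1 and 23.0 CPM against 1176 and 722.1 CPM, where the limit on C1q genes in the rule holds the members down. Innate-lymphoid markers, which share Il22 and Gata3 with helper cells, summed to 94.2 and 110.2 CPM over 7 genes, 4 and 3 of them detected, against 130.3 and 207.3 CPM, with Ncr1, Il1rl1 and Eomes at 0 in the members. Dendritic-cell markers came to 756.2 and 78.1 CPM against 745.0 and 334.7 CPM, pancreatic acinar genes to 2549 and 0 CPM against 10930 and 9.56 CPM, and haemoglobin and other erythroid genes to 529.6 and 4.59 CPM against 263.7 and 91.7 CPM, so mouse 1 carried more of this RNA in both classes. In mouse 1 the dendritic-cell and erythroid sums of the members were not below those of the others. Stromal and endothelial markers reached 45.8 and 64.3 CPM against 28.9 and 21.7 CPM, and granulocyte and mast-cell markers 5.09 and 0 CPM against 20.01 and 44.5 CPM. The part of this RNA in the results was not tested.

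Most members passed the rule on a single Cd4 molecule. Among all members 79 and 44 had 1 UMI of Cd4, 33 and 18 had 2, and 14 and 15 had 3 or more, up to 7 and 8. On the other side of the rule, 1275 and 1696 barcodes failed it only for lack of a Cd4 UMI, 111 and 40 only for lack of CD3, 22 and 11 only for a UMI of Foxp3, 17 and 7 only for Cd8b1 and 16 and 12 only for Trdc. The 111 and 40 barcodes without CD3 had medians of 24942 and 19032 UMIs. Of the rest, 6 and 2 failed only on Ptprc, 9 and 1 only on C1q genes and 5 and 1 only on the cycling genes. The 2 libraries shared 16 cell barcodes among those kept, and 0 of these were members.

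Cd4 (GRCm38 chromosome 6, 124864692 to 124888221, minus strand), the coreceptor used in the rule, stood at 129.2 and 322.3 CPM in all members of mouse 1 and mouse 2, and at 359.0 and 551.0 CPM in those under 20% immunoglobulin UMIs. Cd3e (chromosome 9, 44998740 to 45009627, minus strand), also of the rule, was at 634 and 1189 CPM in the latter. The other CD3-positive barcodes under 20% had 6.86 and 3.57 CPM of Cd4 and 1156 and 1683 CPM of Cd3e. These values describe the selection.

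The helper genes Icos and Izumo1r were not used by the rule, and their levels were higher in the members of both mice. Icos, the inducible costimulator (chromosome 1, 60977927 to 61000320, plus strand), was at 119.7 and 128.6 CPM in members under 20% immunoglobulin UMIs, against 16.2 and 7.26 CPM in the other CD3-positive barcodes. A UMI of it was present in 24.1% (15.6 to 34.5%) and 25% (15.3 to 37.0%) of the members, and in 3.78% and 1.54% of the others, which had medians of 3330 and 2588 UMIs. The far deeper plasma-type barcodes had one in 0.354% and 0%, where a count of 0 allows up to 0.731%.

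Izumo1r, which encodes the folate-receptor-family protein FR4 found on helper and regulatory T cells (chromosome 9, 14885814 to 14903949, minus strand), was at 134.9 and 32.1 CPM in these members against 10.2 and 6.05 CPM in the others. Its UMIs were found in 25.3% (16.6 to 35.8%) of the members of mouse 1 and in 4.41% (0.919 to 12.4%) of those of mouse 2, against 2.20% (1.72 to 2.77%) and 1.46% (1.16 to 1.82%) of the others. In mouse 2 these are 3 members and the intervals overlap, so the mice differed in this gene more than in Icos. With each barcode thinned to 1000 UMIs the shares were 9.20% and 2.99% for Izumo1r and 9.20% and 13.4% for Icos. Cd40lg, the ligand by which helper cells stimulate B cells and dendritic cells (chromosome X, 57212143 to 57224042, plus strand), was at 68.8 and 32.1 CPM against 3.65 and 1.33 CPM. At least 1 UMI of Icos, Izumo1r or Cd40lg was carried by 56.3% (45.3 to 66.9%) of the members of mouse 1 and by 35.3% (24.1 to 47.8%) of those of mouse 2, against 5.55% and 3.05% of the other CD3-positive barcodes and 0.506% and 0% of the plasma-type barcodes, with the same limit of 0.731%.

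Against all other CD3-positive barcodes, which numbered 3839 and 5474, members had higher levels of genes of the helper-identity, recirculation and type 17 lists and lower levels of genes of the cytotoxic and innate-like intraepithelial lists, in the fit with the mouse as a block. The comparison asks what sets the members apart from all other barcodes with a CD3 UMI, many of which carry the Trdc or Cd8b1 that the rule excludes. These others did not have to pass the limits on Ptprc, C1q and cycling genes, so not all of them need be single T cells. Over the sums of UMIs of the members, edgeR's quasi-likelihood test with Benjamini-Hochberg adjustment called 0 of 11885 genes (0%) when the mice were not paired, where 810 had an unadjusted p under 0.05, and DESeq2 called 52 higher and 17 lower. The sums of a mouse come from the same animal and library, and with the mouse as a block edgeR called 468 genes higher (3.94%) and 529 lower (4.45%). Under 20% immunoglobulin UMIs it called 0 of 11600 genes (0%) without the block, where 1077 had an unadjusted p under 0.05, and 243 higher (2.09%) and 364 lower (3.14%) with it. The blocked fit has 1 residual degree of freedom and takes its spread from all genes together, so its p-values and SEs are small by construction. The calls below are those of this fit.

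Cd28 and its relatives Ctla4 and Icos were all higher in the members. Cd28, the main costimulatory receptor of T cells (chromosome 1, 60716800 to 60773359, plus strand), was at 201.1 and 174.5 CPM in members under 20% immunoglobulin UMIs and at 14.2 and 6.66 CPM in the other CD3-positive barcodes. The members of both mice lay far above the others. The log2 fold change was 4.30 ± 0.29 (SE, adjusted p = 5.616e-45 with the mouse as a block and 0.2159 without, edgeR), and 2.84 over all members. Plasma cells also hold Cd28, and the plasma-type barcodes had a UMI of it in 41.0% and 54.1%, or 3.20% and 4.97% when thinned, against 48.3% and 30.9% of the members, or 11.5% and 13.4% when thinned.

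Ctla4, the inhibitory receptor of the same family (chromosome 1, 60887000 to 60915832, plus strand), lies between Cd28 and Icos on chromosome 1 and was at 119.7 and 197.4 CPM against 27.7 and 15.3 CPM, a log2 fold change of 2.95 ± 0.29 (SE). For Icos the log2 fold change was 3.52 ± 0.32 (SE, adjusted p = 8.292e-26 with the block and 0.2315 without, edgeR) and 3.07 over all members. For Izumo1r it was 3.41 ± 0.42 (SE, adjusted p = 4.925e-14 and 0.2628, edgeR) and 3.12 over all members. For Cd40lg it was 4.45 ± 0.63 (SE, adjusted p = 2.631e-10 and 0.2538, edgeR). All 4 were higher in the members of both mice. Of the 12 genes of helper identity measured, 8 were higher and 0 lower, with a median log2 fold change of 2.39 against -0.10 over all genes. The 8 were Icos, Ctla4, Cd40lg, Slamf1, Izumo1r, Tnfrsf25, Tnfsf8 and Tnfrsf4. Zbtb7b, which encodes the CD4-lineage factor ThPOK, was at 43.3 and 23.0 CPM against 14.8 and 14.3 CPM and did not pass (adjusted p = 0.08312 with the block, edgeR).

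Genes of the shared T-cell list, which holds receptor chains, other surface proteins and signalling genes, were moderately higher. Of its 20 genes 10 were higher and 0 lower with the block, with a median of 0.65 against -0.10. Among the 10 were Cd28, Cd5, Cd2, Cd6 and Thy1, surface proteins outside the T-cell receptor complex. Not every class held them, as Cd28 and Cd5 were low in Trdc-positive barcodes (given below). Cd5, which dampens receptor signals and is scarce on innate-like T cells, was at 142.6 and 101.0 CPM against 32.7 and 9.56 CPM. Trac, the constant gene of the alpha chain, was at 539.8 and 619.8 CPM against 291.4 and 336.6 CPM. The rule kept barcodes with Trdc out of the members, and its part in the level of Trac was not tested. Over all members, plasma-type barcodes included, 7 of the 20 were higher and 3 lower.

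All 13 genes of the recirculation list were higher in the members under 20% immunoglobulin UMIs with the block, with a median log2 fold change of 2.65 against -0.10, and 12 over all members. S1pr1, the receptor for sphingosine-1-phosphate by which lymphocytes leave tissue (chromosome 3, 115710433 to 115715072, minus strand), was at 157.9 and 96.4 CPM against 17.2 and 5.87 CPM, a log2 fold change of 3.61 ± 0.31 (SE, adjusted p = 1.042e-27 with the block and 0.2592 without, edgeR). Igfbp4, which marks naive T cells in mice (chromosome 11, 99041244 to 99054392, plus strand), was at 226.6 and 41.3 CPM against 23.2 and 4.72 CPM. The T-cell factor Tcf7 was at 430.3 and 298.4 CPM against 91.7 and 93.6 CPM, and the interleukin-7 receptor Il7r at 720.6 and 771.3 CPM against 170.9 and 90.1 CPM. Every value of the members was above both values of the other barcodes, and Igfbp4 differed most between the mice. A UMI of S1pr1 was present in 33.3% (23.6 to 44.3%) of the members of mouse 1 and 13.2% (6.24 to 23.6%) of those of mouse 2, against 2.94% and 1.20% of the other barcodes and 2.68% and 0.795% of the plasma-type ones. Thinned to 1000 UMIs, the members had one in 12.6% and 4.48%.

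Among 9 type 17 genes measured 5 were higher and 0 lower (median 1.82): Rora, Il22, Il17a, Tmem176b and Tmem176a. Il17a, the cytokine that recruits neutrophils and strengthens the epithelial barrier (chromosome 1, 20730905 to 20734496, plus strand), had the highest fold change of any gene the rule for naming admits, 6.55 ± 0.32 on the log2 scale (SE, adjusted p = 3.094e-88 with the block and 0.4234 without, edgeR). That value rests on few barcodes. The level was 453.2 and 45.9 CPM in the members under 20% and 6.43 and 0.0605 CPM in the others, but 1 barcode of mouse 1 held 104 of the 178 UMIs there, and the level without it was 192.5 CPM. A UMI of Il17a was present in 4.60% (1.27 to 11.4%) and 4.41% (0.919 to 12.4%) of the members. Rora, a nuclear receptor active in type 17 cells, was at 142.6 and 220.4 CPM against 53.7 and 51.9 CPM.

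Type 1 genes were mixed, with 2 higher and 2 lower of 11 and a median of 0.03. Il18r1 and Il18rap, the chains of the interleukin-18 receptor, were higher, Il18r1 (chromosome 1, 40465552 to 40500854, plus strand) at 112.0 and 183.7 CPM against 9.13 and 7.02 CPM, with a log2 fold change of 4.23 ± 0.32 (SE, adjusted p = 5.661e-37 with the block and 0.1236 without, edgeR). Ccl5 and Nkg7, which cytotoxic cells share, were lower. The lineage factor Tbx21 was at 7.64 and 32.1 CPM against 25.3 and 31.6 CPM, with no call, and the cytokine Ifng at 20.4 and 18.4 CPM against 5.77 and 3.87 CPM (adjusted p = 0.08665 with the block, edgeR). Of the 5 type 2 genes measured none passed in either direction (median 1.96), with Il4 at 2 and 1 UMIs and Gata3 at 68.8 and 59.7 CPM against 37.5 and 51.5 CPM.

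Of 9 genes of follicular helper cells, which help B cells in germinal centres, 4 were higher and 0 lower (median 2.27): Slamf6, Sh2d1a, Maf and Btla. Slamf6 was at 185.9 and 119.4 CPM against 17.6 and 13.9 CPM, and Maf, a factor that several helper types use, at 333.5 and 303.0 CPM against 65.4 and 27.7 CPM. The defining members Cxcr5, Bcl6 and Il21 were not among the genes called. They came to 6, 3 and 2 UMIs in mouse 1 and 0, 5 and 0 in mouse 2. Of 14 regulatory genes 2 were higher (Il2ra and Capg) and 2 lower (Ikzf2 and Entpd1), with a median of -0.36.

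Of the lists, those of killing and of innate-like intraepithelial T cells were lower in the members, and they hold 18 of the 364 genes called lower. The rule kept barcodes with Trdc or Cd8b1 out of the members. Before the limit of 20%, 4540 of the 9313 other CD3-positive barcodes were in the Trdc-positive class and 878 in the Cd8b1-positive class. The part of this selection in the difference was not tested. Of 16 cytotoxic genes 0 were higher and 11 lower (median -1.08), and of 9 innate-like intraepithelial genes 0 were higher and 7 lower (median -1.10). Gzma, a granzyme, was at 1813 and 8466 CPM in the members under 20% against 13356 and 18111 CPM in the other barcodes, a log2 fold change of -1.90 ± 0.40 (SE, adjusted p = 0.0001339 with the block and 0.5217 without, edgeR). Fcer1g, a signalling adaptor of natural killer and innate-like T cells, was at 112.0 and 753.0 CPM against 1153 and 1788 CPM, and Itgae at 157.9 and 454.5 CPM against 699.6 and 910.1 CPM. In each of these genes mouse 2 lay closer to the other barcodes than mouse 1 did.

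Residence and homing genes went both ways, with 7 of 24 higher and 3 lower (median 0.21). The higher ones were Cd44, Ccr2, Gpr183, Itga4, Ccr6, S100a6 and Cd69, and the lower ones Itga1, Itgae and Runx3. Gpr183, an oxysterol receptor that positions cells in gut lymphoid tissue, was at 170.6 and 128.6 CPM against 34.5 and 10.5 CPM. The gut-homing receptor Ccr9 was at 229.2 and 679.5 CPM against 274.5 and 394.5 CPM and did not pass. Immediate activation genes also went both ways, with 7 of 24 higher and 2 lower (median 0.55), while of 10 heat-shock genes and 13 genes of the methionine cycle and one-carbon metabolism 0 passed in either direction (medians 0.18 and 0.20). Over all members with the block the counts of genes higher and lower were 7 and 0 for helper identity, 5 and 0 for type 17, 2 and 3 for type 1, 5 and 0 for follicular, 2 and 3 for regulatory, 0 and 13 for cytotoxic, 0 and 7 for innate-like, 5 and 3 for residence, 11 and 1 for activation and 2 and 0 for heat-shock genes. Without the block 0 genes of any list passed.

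**Figure D2:**
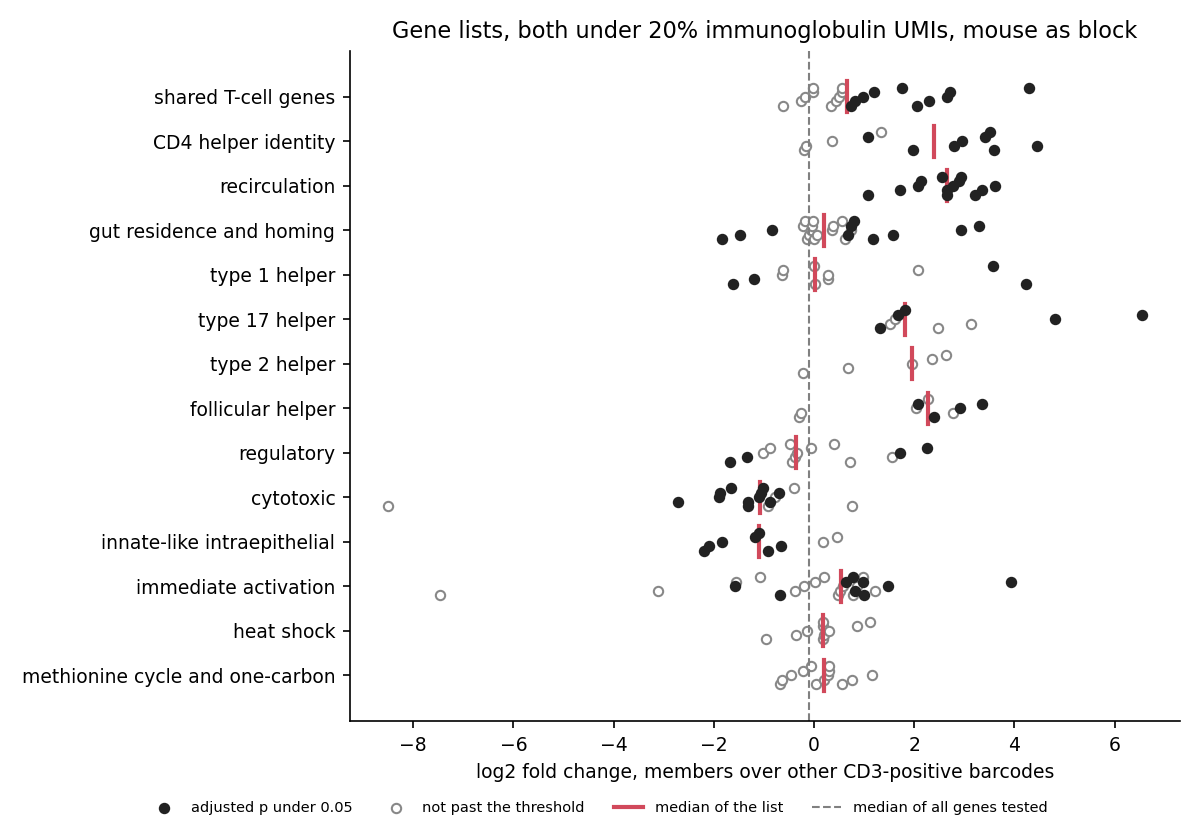
Each point is 1 gene of a list, placed by its log2 fold change in members over other CD3-positive barcodes, both under 20% immunoglobulin UMIs and with the mouse as a block. Filled points passed an adjusted p of 0.05 (edgeR quasi-likelihood test), red bars are list medians and the dashed line is the median of all genes (-0.10). The recirculation list has all 13 of its genes filled and to the right, and the cytotoxic and innate-like lists have 11 and 7 filled to the left.

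By the rule for naming, the other genes with the highest fold changes were Ctla2a, which encodes a cysteine protease inhibitor of T cells, and Kbtbd11, whose place Ctla4 took over all members. Ctla2a was at 140.0 and 27.6 CPM against 11.0 and 6.17 CPM, and Kbtbd11 at 114.6 and 55.1 CPM against 13.2 and 6.05 CPM. The 10 genes with the lowest fold changes had 0 UMIs in the members of both mice. In the other barcodes all but Wfdc17 (32.2 and 32.8 CPM) lay mostly in mouse 1, such as Ifi27l2b at 80.9 and 3.03 CPM and Cybrd1 at 53.3 and 1.82 CPM. The members of mouse 2 held 217801 UMIs in all, so at such low levels 0 UMIs there says little. The bounds pool both mice. With a floor of 3 UMIs over both mice, Sult1b1 was at least 8.24-fold lower, Ifi27l2b at least 7.80-fold, Tm4sf20 at least 6.69-fold, Wfdc17 at least 6.62-fold, Leap2 at least 6.57-fold, Krt19 at least 6.35-fold, Phgr1 at least 6.33-fold, Sult6b2 at least 5.85-fold, Cybrd1 at least 5.12-fold and Gsta4 at least 4.93-fold. Krt19, Leap2, Phgr1 and Tm4sf20 are genes of the gut epithelium and Wfdc17 is a myeloid gene. The sums of epithelial and macrophage markers given above were lower in the members too. Ptprc and few C1q UMIs were required of the members but not of the other barcodes, which bears on both kinds of genes. The part of this selection in the differences was not tested. Over all members, the lowest were Chil3, Wfdc17, Sult6b2, Gsta4, Ccl17, S1pr3, Fxyd3, Ptgs1, Tspan8 and Clec2h, at least 14.02-fold lower for Chil3 and at least 5.58-fold for Clec2h.

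Barcodes with Cd8b1, which marks CD8 T cells with an alpha-beta coreceptor, numbered 569 and 309 (524 and 302 under 20% immunoglobulin UMIs). Against them, members had higher levels of helper genes, and few genes of the shared T-cell list passed the test. Without the block edgeR called 0 of 11238 genes (0%), where 1067 had an unadjusted p under 0.05 and DESeq2 called 22 higher and 13 lower, and under 20% 0 of 10787 genes (0%), where 922 had an unadjusted p under 0.05. With the block 284 genes were higher (2.53%) and 169 lower (1.5%), and under 20% 78 were higher (0.723%) and 48 lower (0.445%). This comparison and those with the other classes share the sums of the members.

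Of the helper-identity genes 7 of 12 were higher in the members and 0 lower under 20% with the block (median 2.80 against -0.05 over all genes). Icos was at 7.44 and 12.4 CPM in Cd8b1-positive barcodes, well below both members' values given above, with a log2 fold change of 3.83 ± 0.48 (SE, adjusted p = 0.002048 with the block, edgeR). Cd40lg was at 0 and 3.10 CPM there. Maf was at 33.7 and 6.21 CPM, a log2 fold change of 3.92 ± 0.31 (SE, adjusted p = 2.873e-05 with the block, edgeR), Il18r1 at 7.44 and 5.17 CPM, 4.45 ± 0.39 (adjusted p = 8.181e-05 with the block and 0.05384 without, edgeR), and Izumo1r at 6.45 and 9.31 CPM, 3.68 ± 0.66 (adjusted p = 0.01766 with the block, edgeR). Il17a had 188 UMIs in the members and 0 in Cd8b1-positive barcodes, which is at least 306-fold higher. Without the barcode that holds 104 of these UMIs, 84 remain and the bound is at least 139-fold, an alternative chosen after the data were seen. Over all members the same genes led, with log2 fold changes of 3.92 for Il18r1, 3.61 for Maf, 3.26 for Izumo1r and 3.19 for Icos.

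Of the shared T-cell genes 1 of 20 was higher against Cd8b1-positive barcodes, Cd28, and 0 were lower. Cd5 was at 123.5 and 62.1 CPM in them, with a log2 fold change of 0.41 ± 0.22 (SE, adjusted p = 0.5164 with the block, edgeR), and -0.03 over all members, so no difference was detected. Of 13 recirculation genes 6 were higher (Tcf7, Satb1, S1pr1, Il7r, Igfbp4 and Klf2; median 1.79). Of 17 cytotoxic genes 4 were lower (Gzmb, Gzmk, Ccl4 and Ctsw; median -1.06), and Cd160, Itgae, Itga1 and Runx3 were lower as well. Of the others, 2 of 8 type 17, 2 of 9 follicular and 3 of 12 regulatory genes (Tnfrsf18, Il2ra and Capg) were higher and 0 lower, 2 type 1 genes were higher and 2 lower, and Gpr183 and Ccr6 were higher. The lowest fold changes were again in genes with 0 UMIs in the members, Tm4sf20, Cybrd1, Adh6a, Sult1b1 and Ifi27l2b, from at least 5.595-fold to at least 8.46-fold lower. In Cd8b1-positive barcodes each of them lay mostly in mouse 1, such as Tm4sf20 at 60.01 and 3.10 CPM, and the bounds pool both mice.

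The difference from barcodes with Trdc, the constant gene of the delta chain, which numbered 1462 and 3078 (1396 and 3051 under 20% immunoglobulin UMIs), held without pairing. Over all members 5 of 11238 genes were higher (0.0445%) and 1 lower (0.0089%), and with the block 770 (6.85%) and 514 (4.57%). Under 20% 86 of 10787 genes were higher (0.797%) and 23 lower (0.213%) without the block, and 402 (3.73%) and 265 (2.46%) with it. The calls against Trdc-positive barcodes in the paragraphs below are those without the block, unless the block is named.

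Under 20% immunoglobulin UMIs the receptors that restrain or support alpha-beta T cells were low in Trdc-positive barcodes. Cd28 was at 1.53 and 0.651 CPM in them and Cd5 at 1.72 and 1.09 CPM. The log2 fold changes were 7.67 ± 0.76 (SE, adjusted p = 0.01079, edgeR) for Cd28 and 6.66 ± 0.73 (adjusted p = 0.01634, edgeR) for Cd5. Cd6, a relative of Cd5, was at 127.3 and 142.3 CPM in the members and 9.38 and 10.8 CPM in Trdc-positive barcodes, 3.87 ± 0.25 on the log2 scale (SE, adjusted p = 0.002076, edgeR), the smallest SE of the 3. Of the shared T-cell genes 6 of 20 were higher (Cd6, Cd28, Cd5, Thy1, Cd2 and Trac; median 0.62 against -0.06 over all genes), and 0 were lower. Over all members Cd5, Il18r1 and Cd6 were called higher at 6.12 (adjusted p = 0.03313, edgeR), 4.93 (0.02689) and 3.29 (0.008486).

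Helper genes were higher for 5 of 12 (Slamf1, Icos, Ctla4, Tnfrsf4 and Izumo1r; median 4.18) and recirculation genes for 8 of 13 (Il7r, Tcf7, Il6ra, S1pr1, Ms4a6b, Ms4a4b, Satb1 and Lef1; median 4.21), with 0 lower in either list. Icos was 4.83 ± 0.63 higher on the log2 scale (SE, adjusted p = 0.02057, edgeR), S1pr1 5.58 ± 0.80 (adjusted p = 0.0259), Ctla2a 5.32 ± 0.78 (0.02816) and Il18r1 5.39 ± 0.39 (0.002598). Rora and Il22 among the type 17 genes, Sh2d1a, Slamf6 and Maf among the follicular genes, Il18r1 and Il18rap among the type 1 genes, Gpr183 and Il2ra passed as higher, and Gzmb was the only cytotoxic gene of 17 called lower (median -1.24). With the block, as used for the other comparisons, 5 of 17 cytotoxic and 4 of 9 innate-like intraepithelial genes were lower and 0 higher. Over all members with the block 13 and 7 were lower.

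The genes lowest against Trdc-positive barcodes were not those of the lists. Car2, a carbonic anhydrase, was at 22.9 and 87.2 CPM in the members against 590.8 and 492.2 CPM, a log2 fold change of -3.32 ± 0.42 (SE, adjusted p = 0.02046, edgeR). Clnk, an adaptor of immune receptor signalling, was at 10.2 and 9.18 CPM against 89.4 and 71.2 CPM, -2.88 ± 0.32 (adjusted p = 0.01634), and was the gene called lower over all members too (-3.21, adjusted p = 0.04071). Srbd1 had a log2 fold change of -3.13 ± 0.43 (adjusted p = 0.02199, edgeR). S1pr3, another sphingosine-1-phosphate receptor, had 0 UMIs in the members and was at least 5.05-fold lower, and Scin, an actin-severing protein, had 2 UMIs against 783, a ratio of 16.6 with a counting interval of 4.57 to 137.

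Foxp3-positive CD4 barcodes numbered 22 and 11, or 18 and 10 under 20% immunoglobulin UMIs, too few for a test, so their values are set beside those of the members. They had more of several helper genes than the members did. Icos was at 516.9 and 500.5 CPM in them, Izumo1r at 357.9 and 184.4 CPM, Ctla4 at 967.6 and 869.2 CPM, Tnfrsf4 at 676.0 and 605.8 CPM against 35.7 and 45.9 CPM in the members, and Maf at 1564 and 1317 CPM. The regulatory genes Tnfrsf18 (662.7 and 632.2 CPM against 94.2 and 110.2 CPM) and Il2ra (132.5 and 210.7 CPM against 35.7 and 41.3 CPM) lay higher as well. Cd40lg, at 53.0 and 52.7 CPM, lay between the values of the members, and Tcf7, at 13.3 and 79.0 CPM, lay below both. The Foxp3-positive barcodes under 20% held 75446 and 37965 UMIs in all, so these values of Cd40lg and Tcf7 rest on a few UMIs. In the order of Icos levels, Foxp3-positive barcodes came first and the members second, with the Cd8b1-positive, Trdc-positive and remaining CD3-positive barcodes below both and not separated from one another beyond the spread between the mice.

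**Figure D3:**
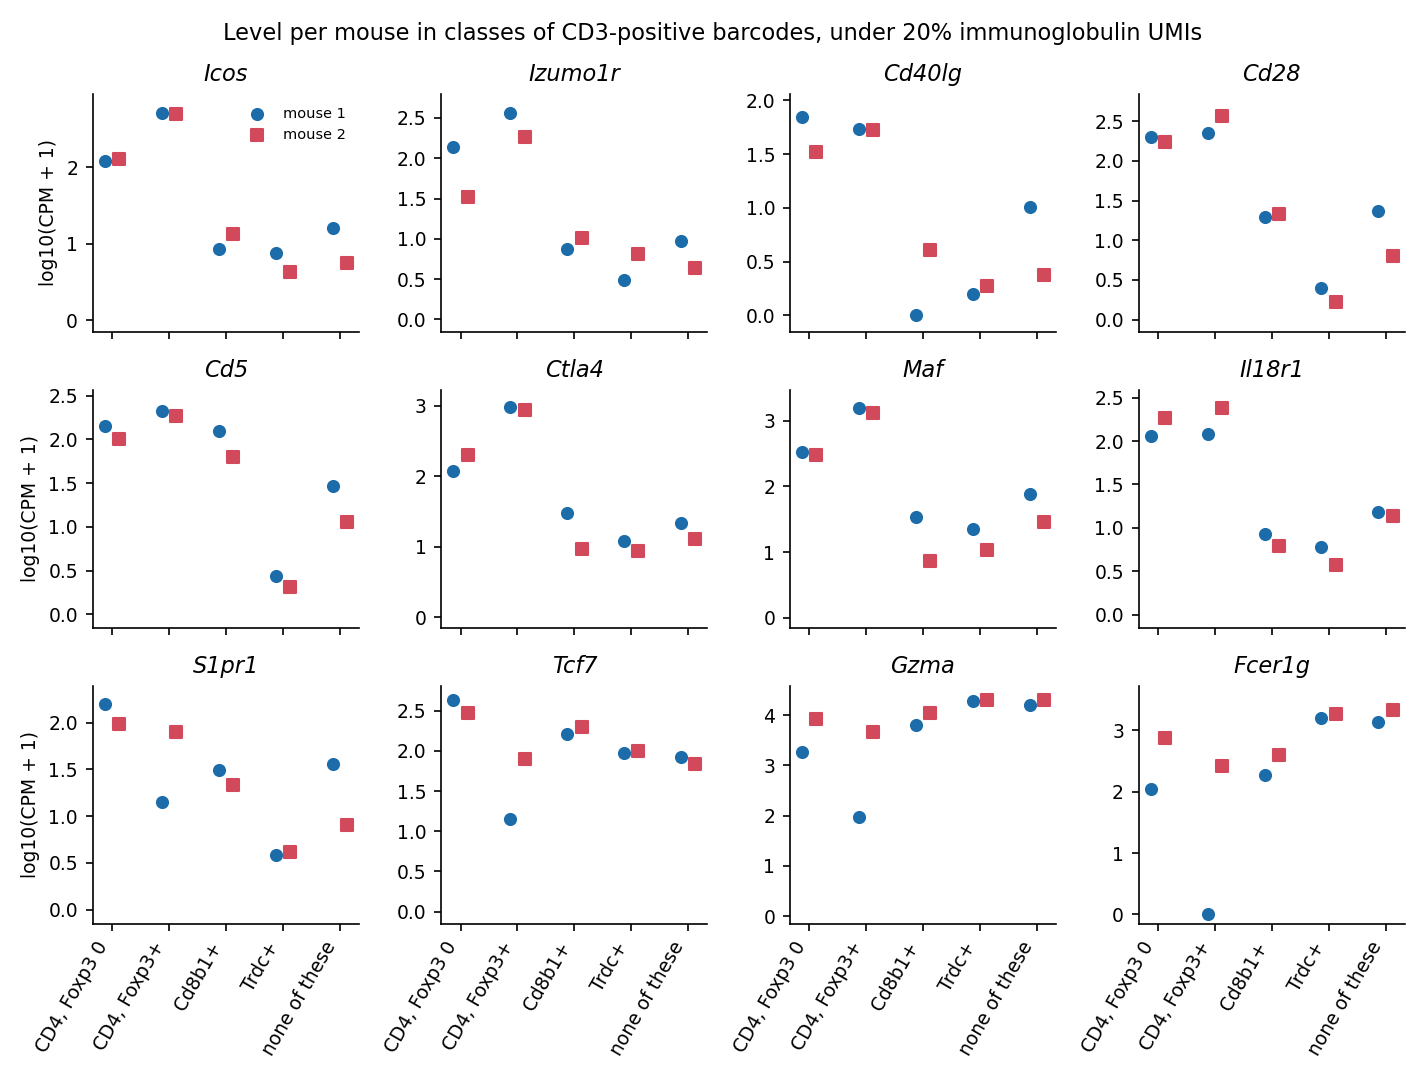
Level of 12 genes as log10(CPM + 1) in each mouse (circles mouse 1, squares mouse 2) for 5 classes of CD3-positive barcodes under 20% immunoglobulin UMIs; members are the class labelled CD4, Foxp3 0. Icos is at 119.7 and 128.6 CPM in the members, above Cd8b1-positive, Trdc-positive and remaining barcodes and below Foxp3-positive ones (516.9 and 500.5 CPM), while Cd5 is lowest in Trdc-positive barcodes (1.72 and 1.09 CPM).

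Members with type 1, follicular or type 2 genes were few, as were those with a UMI of Il17a given above. Under 20% immunoglobulin UMIs 12 members of each mouse had a UMI of Tbx21, Ifng or Il12rb2, or 13.8% and 17.7%, which is close to the 17.8% and 16.2% of the other CD3-positive barcodes. Thinned to 1000 UMIs, the members had one in 4.60% and 5.97%. Genes of follicular cells (Cxcr5, Bcl6 or Il21) were present in 7 and 5 members, or 8.05% and 7.35%, close to 6.78% and 5.15% of the other barcodes. Type 2 cytokines (Il4, Il5 or Il13) were present in 2 and 1 members, or 2.30% and 1.47%, against 0.372% and 0.225% of the others.

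A part of the members carried genes of intraepithelial cells, and more so in mouse 2. Cd8a, the coreceptor chain that intraepithelial cells can carry without Cd8b1, had a UMI in 19.5% (11.8 to 29.4%) of the members of mouse 1 and in 45.6% (33.5 to 58.1%) of those of mouse 2 under 20% immunoglobulin UMIs, or 9.20% and 32.8% when thinned. It was present in 79.4% and 85.3% of the other CD3-positive barcodes and in 7.64% and 7.16% of the plasma-type ones. The constant genes of the T-cell receptor gamma chain (Tcrg-C1, Tcrg-C2 and Tcrg-C4) had a UMI in 21.8% and 54.4% of the members and the adaptors Fcer1g or Tyrobp in 17.2% and 39.7%. These shares were higher in mouse 2 for all 3, as they were in the other barcodes, where they came to 77.6% and 88.1% and to 67.9% and 82.0%. A gamma constant gene occurred together with Trac, Trbc1 or Trbc2 in 19 and 36 members and Cd8a with them in 16 and 30.

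Gzma or Gzmb had a UMI in 50.6% and 55.9% of the members, against 83.6% and 87.0% of the other CD3-positive barcodes. Barcodes that should lack them had one as well, 55.1% and 51.3% of the plasma-type barcodes and 29.4% and 32.8% of barcodes with Epcam and Krt8 but without Ptprc and CD3 (595 and 128, medians 6212 and 4768 UMIs). The part of background RNA in the share of the members was not tested. The plasma-type barcodes are far deeper than the members, while the epithelial ones are closer in depth and have the lower share. Thinned to 1000 UMIs, the share was 27.6% (18.5 to 38.2%) and 46.3% (34.0 to 58.9%) in the members. It was 5.43% and 4.18% in the plasma-type barcodes and 6.93% and 9.48% in the epithelial ones. Thinning removes a larger part of the UMIs of a deeper barcode, background RNA among them. Unthinned, the members of mouse 1 (50.6%) were below the plasma-type barcodes (55.1%) and those of mouse 2 (55.9%) above them (51.3%).

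The shares in members with 1 UMI of Cd4 and in members with 2 or more are given as a description, since the rule used Cd4 and the barcodes of a mouse come from 1 library. In mouse 2 the intervals of the 2 sets were apart for Cd8a and overlapped for the other genes, and in mouse 1 they overlapped for all. Under 20% immunoglobulin UMIs these were 49 and 38 members with 1 UMI, with medians of 3557 and 2772 UMIs in all, and 38 and 30 with 2 or more, with medians of 4413 and 3217. In mouse 2 Cd8a was present in 63.2% (46.0 to 78.2%) of those with 1 UMI and 23.3% (9.93 to 42.3%) of those with 2 or more. When thinned it was present in 45.95% (29.49 to 63.08%) and 16.7% (5.64 to 34.72%), with intervals that overlap. In mouse 1 the shares were 18.4% (8.76 to 32.0%) and 21.1% (9.55 to 37.3%). The gamma constant genes came to 65.8% (48.7 to 80.4%) and 40% (22.7 to 59.4%) in mouse 2 and to 22.5% and 21.1% in mouse 1. Gzma or Gzmb came to 63.2% (46.0 to 78.2%) and 46.7% (28.3 to 65.7%) in mouse 2 and to 44.9% and 57.9% in mouse 1. Icos, Izumo1r or Cd40lg came in mouse 2 to 23.7% (11.4 to 40.2%) and 50% (31.3 to 68.7%), and stood at 55.1% and 57.9% in mouse 1. The CD3-positive barcodes outside the members and under 20% had a UMI of Cd4 in 1.80% and 0.693%, and the part of free Cd4 RNA in the members was not tested.

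**Figure D4:**
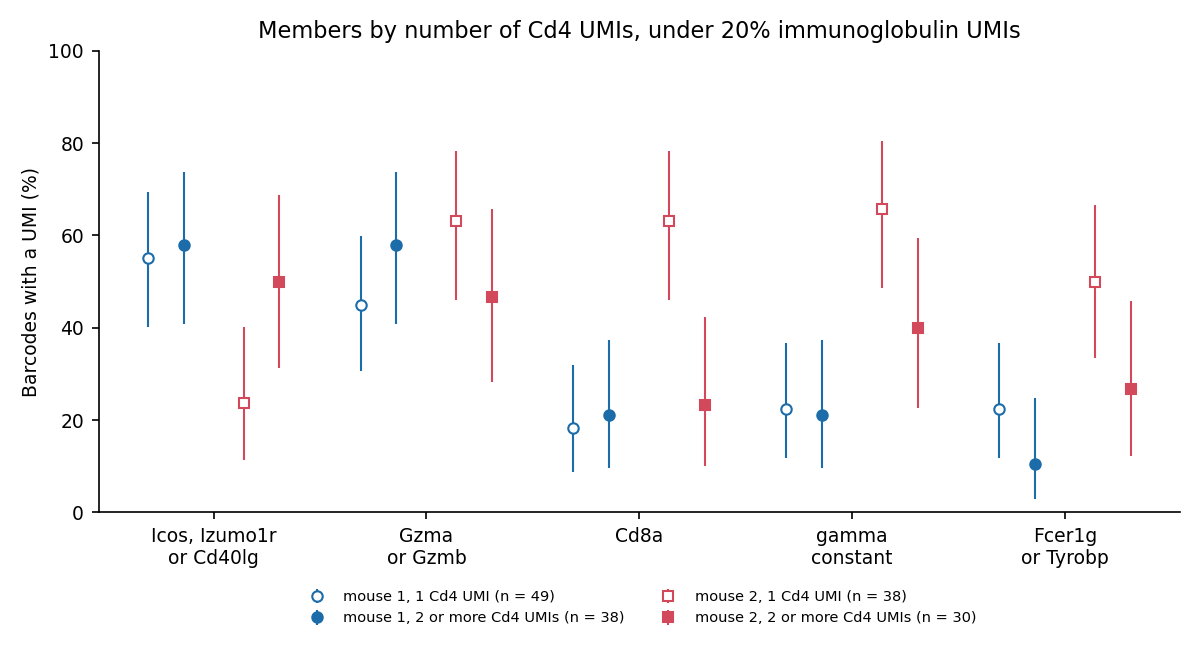
Percent of members under 20% immunoglobulin UMIs with at least 1 UMI of the named genes, for members with 1 UMI of Cd4 (open, 49 and 38 barcodes) and with 2 or more (filled, 38 and 30), in mouse 1 (circles) and mouse 2 (squares); lines are exact 95% binomial intervals. In mouse 2 Cd8a is at 63.2% with 1 UMI of Cd4 and at 23.3% with more, while in mouse 1 it is at 18.4% and 21.1%.

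Apc, the gene deleted in the epithelium of these mice, was at 28.01 and 45.9 CPM in the members under 20% immunoglobulin UMIs, 55.3 and 49.5 CPM in the other CD3-positive barcodes and 66.6 and 63.5 CPM in the Epcam- and Krt8-positive barcodes. A 3′ count does not show whether a transcript carries the deletion. Ahcy, the methionine-cycle enzyme that the study followed, had 1 UMI in the members of each mouse (2.55 and 4.59 CPM), against 4.38 and 2.72 CPM in the other CD3-positive barcodes, a difference that cannot be detected at this depth.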

How the data were processed

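Single-cell libraries of 2 APC mice (proximal small intestine, 10x 3′ v3) were used, with groups as the labels give them. The authors deposited UMI counts for every gene and barcode, from Cell Ranger 6.1.2 and mm10. The annotation release was not given in the sources used here. The counts carried no normalization, and 0 further per-sample columns were left unused. Coordinates are from GENCODE on GRCm38, in which 30934 of 31053 gene identifiers were matched.

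Barcodes with over 100 genes, over 400 UMIs, under 5% mitochondrial and under 10% haemoglobin UMIs were kept, as in the methods of the study. The members, gene lists and naming rule were chosen with earlier results of these data known. UMIs were summed per mouse and class and tested with edgeR 4.0.16 (glmQLFit, glmQLFTest, TMM scaling and filterByExpr in R 4.3.3; two-sided, with Benjamini-Hochberg adjustment over all genes tested), after a check on simulated data. The SE of a log2 fold change was taken as its absolute value over the square root of the quasi-likelihood F statistic. It thus carries the spread of that fit and is not a separate estimate for the gene. Classes under 20 barcodes in a mouse were not tested against the members. A comparison of 5 classes of CD3-positive barcodes was planned in 1 fit, from which the Foxp3-positive class dropped out for this reason. Genes of the rule and their partners (Cd8a and the gamma and delta receptor genes) stayed in the sums but out of the tests. Genes were named by fold change, the 10 highest and 10 lowest against all other CD3-positive barcodes and 5 and 5 otherwise, among those past an adjusted p of 0.05 with 1 direction in both mice and at least 50 UMIs in the higher class. Where none passed without the block, the blocked fit was used. Receptor variable-region, immunoglobulin, mitochondrial, ribosomal and unnamed genes were left out.

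Sums with the same number come from the same animal and library and are paired, and the correlations of their deviations from the class means were between 0.37 and 0.42. The unblocked fit was the planned one. It called 0 genes against all other CD3-positive and Cd8b1-positive barcodes, so fold changes and calls printed for these come from the blocked fit. Those against Trdc-positive barcodes come from the unblocked fit unless the block is named. Doublets were kept. Scrublet (scanpy 1.11.5) called 1 and 0 barcodes, so it did not work, and the 8% with the highest scores (635 and 557) were removed as an alternative. Others were thinning each barcode to 1000 UMIs, mitochondrial UMIs under 10%, at least 2 Cd4 UMIs, only the compared classes, the unweighted mean of the other classes, no filter on low counts, DESeq2 1.42.0 and each mouse alone. The limit of 20% immunoglobulin UMIs was chosen after the data were seen. Some planned genes and comparisons within the members are not reported here.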

Additional observations from a re-analysis of the deposited data

Results flagged for a closer look

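In data that no comparison used, 6 barcodes of mouse 1 and 11 of mouse 2 passed the marker rule for conventional CD4 T cells but were removed by the filters on quality. Of these, 5 and 11 were over the limit of 5% mitochondrial UMIs, with medians of 7.69% and 5.58%. They are set apart because they carry the markers of the members outside the barcodes kept. No group held more than 2 samples, so no sample was tested for standing apart from its group.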

How the results depend on the processing

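The counts of genes called depended on the pairing and on depth. With the mouse as a replicate block, 468 genes were higher and 529 lower against all other CD3-positive barcodes, 284 and 169 against Cd8b1-positive, and 770 and 514 against Trdc-positive barcodes. With the block and under 20% immunoglobulin UMIs these became 243 and 364, 78 and 48, and 402 and 265. Under 20% without the block, 86 and 23 were called against Trdc-positive barcodes. DESeq2 called 52 and 17, 22 and 13, and 214 and 116. Without a filter on low counts 239 and 180 were called against Cd8b1-positive, and 559 and 495 against Trdc-positive barcodes. There the median of all genes moved to -0.41 for all other CD3-positive barcodes and -0.23 for Trdc-positive barcodes. Thinned to 1000 UMIs, 1 was lower against Cd8b1-positive, and 39 and 28 were called against Trdc-positive barcodes. With the highest doublet scores removed, 26 and 3 were called against Trdc-positive barcodes. With at least 2 Cd4 UMIs, 21 and 12 were called against Trdc-positive barcodes, and 7 and 5 against all other CD3-positive barcodes when also under 20%. With only the 2 classes compared, 1 was higher against Cd8b1-positive, and 8 and 0 were called against Trdc-positive barcodes. With mitochondrial UMIs under 10%, 0 were lower there. Against the unweighted mean of the other classes 1 was higher. The cause of these shifts was not tested.

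Of the single genes named, Cd5 against Cd8b1-positive barcodes changed sign, from -0.03 to 0.51 thinned, 0.14 with doublet scores removed, 0.43 with at least 2 Cd4 UMIs, 0.43 under 20% immunoglobulin UMIs, 0.41 with the replicate block besides, and between -0.33 (without replicate 2) and 0.44 (without replicate 1) in single mice. Over the alternatives of the single genes 417 values kept direction and side of the threshold, 148 newly passed it, 5 no longer did and 17 moved. The values without a mouse carry no test, since 1 sum a class leaves no residual degrees of freedom, and counts without a mouse were not run. Tests against Foxp3-positive barcodes were not run either, for under 20 barcodes. With 2 mice and 155 members under 20%, absence of a call does not show that levels were equal.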
